A study of Homo sapiens with 2 samples.

Results

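Ywhae and Ywhaz, the genes of the 14-3-3 adaptor proteins epsilon and zeta, were taken from the deposited count table by their symbols, as 2 of the 3764 genes it lists. Both were picked with earlier results of this table in view, namely their counts in the 2 libraries, so their ratios are given as a description with no test. RNA was sequenced from HepG2, a human hepatocellular carcinoma line, in 1 library of wild-type cells carrying a vector and 1 library of cells in which SCRN1 (secernin 1) had been knocked out with CRISPR-Cas9. Neither group had a further treatment, and the sources used here do not say whether the knockout was a single clone. All intervals below are exact intervals at 95% that cover counting error only, since no group had a second culture.

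The 14-3-3 proteins form homodimers and heterodimers that bind other proteins at phosphorylated serine or threonine. Binding can hold a client in the cytoplasm, keep an enzyme inactive or bridge a pair of partners, and the clients include RAF kinases, FOXO transcription factors and the Hippo effector YAP. Mammals have the isoforms beta, epsilon, gamma, eta, theta, zeta and sigma, of which sigma is encoded by SFN (stratifin), a p53 target, and epsilon and zeta are made in most tissues. YWHAZ is widely used as a reference gene for quantitative PCR.

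The table gives mouse gene identifiers, symbols and positions for libraries labelled human, with total counts of 178421 (vector) and 163644 (knockout). Scrn1 and all 11 of the hepatocyte and HepG2 marker genes looked for, among them Alb, Afp and Hnf4a, were not among the listed genes, so neither the knockout nor the cell line could be checked. Whether the deposited counts come from the labelled HepG2 samples therefore cannot be told from the table, and every count below carries that doubt. Of the markers looked for, 1 of 3 was listed for fibroblasts, 1 of 3 for leukocytes, 1 of 3 for epithelial cells and 0 of 2 for endothelial cells. In the vector and knockout libraries, the fibroblast marker Col1a1 had 6 and 4 counts, the leukocyte marker Lyz2 21 and 3, and the epithelial marker Krt8 0 and 2. The part of other cells in the 14-3-3 values was not tested.

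Ywhae (ENSMUSG00000020849) is a protein-coding gene at 75732869 to 75765845 on mouse chromosome 11, and Ywhaz (ENSMUSG00000022285) is a protein-coding gene at 36770770 to 36796929 on mouse chromosome 15. No source used here names the mouse build. No other listed gene overlaps either of them.

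Processed copies of both genes bear on how far their counts can be trusted. The table lists 683 processed pseudogenes, and 0 of them is annotated as a 14-3-3 copy. Of these, 553 are described only as a predicted gene or clone with no parent named, and they held 17044 vector and 16342 knockout counts. Copies of Ywhae or Ywhaz may be among them but could not be picked out by name, and the sources used here do not say how reads matching both a gene and a copy were counted.

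For scale, the human annotation GENCODE 29 on GRCh38 holds 5 processed copies of YWHAE and 8 of YWHAZ. The aligned parts of the YWHAE copies were 90.9% to 96.1% identical to its coding sequence of 765 bases, and 2 copies, YWHAEP1 and YWHAEP5, covered over 90% of it. Those of YWHAZ were 86.4% to 97.6% identical to its 735 coding bases, and 7 of 8 covered over 90%. YWHAZP3 on chromosome 10, which aligned over the whole coding sequence, shared an unbroken run of 221 bases with it, against at most 63 bases for any YWHAE copy. The 2 parent genes were much less alike, with 67.7% identity over 730 aligned coding bases and a longest shared run of 23 bases.

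Human YWHAE lies on chromosome 17 from 1344272 to 1400378. A stretch of 90 of its coding bases (bases 65 to 154, within 1 exon, chr17:1364969-1365058, minus strand) is shown beside that of its 2 longest processed copies. The stretches of the copies lie at chr7:64433929-64434018 on the plus strand and chr2:138288640-138288729 on the minus strand. They are printed to show how close gene and copies are. Capitals mark the bases at which a copy differs from the gene.
YWHAE: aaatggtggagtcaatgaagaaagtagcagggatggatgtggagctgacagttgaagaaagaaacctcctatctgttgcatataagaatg
YWHAEP1: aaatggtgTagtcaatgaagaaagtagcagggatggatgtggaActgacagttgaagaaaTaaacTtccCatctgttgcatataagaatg
YWHAEP5: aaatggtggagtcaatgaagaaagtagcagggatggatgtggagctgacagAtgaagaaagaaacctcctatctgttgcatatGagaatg
The GENCODE sequences show 5 differences in YWHAEP1 and 2 in YWHAEP5 over these 90 bases.

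**Figure D1:**
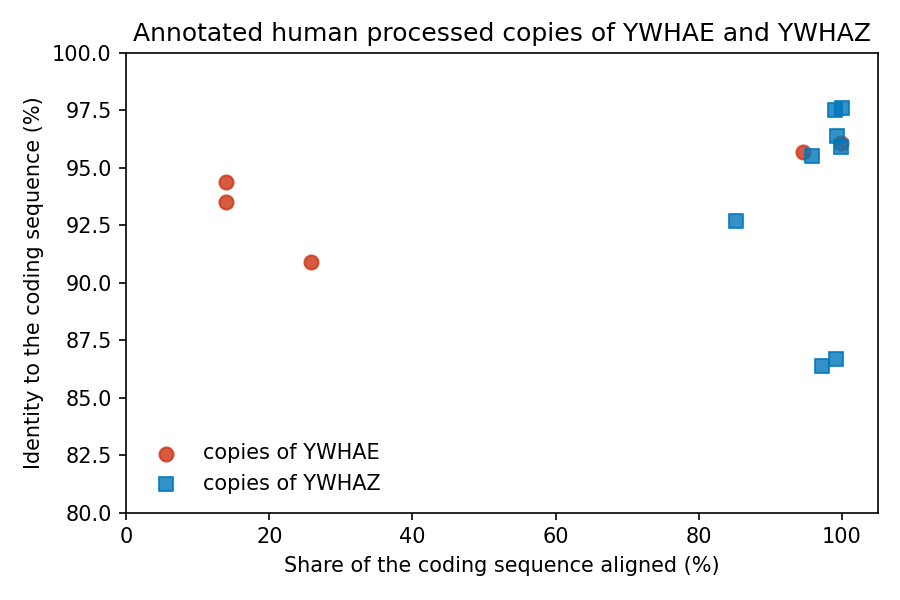
Each point is 1 annotated human processed copy, placed by the share of the parent's coding sequence that it covers (x axis, %) and its identity to that sequence over the aligned part (y axis, %, starting at 80). Of the YWHAZ copies, 7 of 8 cover over 90% of the coding sequence, against 2 of 5 for YWHAE.

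The comparison of the knockout with the vector library asked whether these genes differed when SCRN1 was disrupted. Ywhae had fewer counts in the knockout library and Ywhaz nearly the same number in both. The vector library had 933 counts for Ywhae (874 to 995) and the knockout library 569 (523 to 618). After TMM scaling, which corrects for depth, these were 5190.4 and 3503 CPM (counts scaled to a common library total), a ratio of knockout to vector of 0.675 (0.607 to 0.750), or a log2 ratio of -0.57. The ratio did not reach 2-fold, and since these counts were in view when the gene was picked, its interval gives the counting precision and is no test.

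For Ywhaz the vector library had 130 counts (109 to 154) and the knockout library 123 (102 to 147). Scaled, these were 723 and 757 CPM, a ratio of 1.05 (0.812 to 1.35) and a log2 ratio of 0.07. The interval includes equality, and at this depth a difference of up to 1.35-fold higher or 1.23-fold lower in the knockout library could not be told from none. With median-of-ratios scaling, which left the counts of the 2 libraries unscaled, the Ywhaz ratio was 0.946 (0.733 to 1.22) and so changed its direction, while that of Ywhae was 0.610 (0.549 to 0.678).

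Genes were compared where both libraries together gave at least 20 counts. Of these 1588 genes, 7.81% had their interval wholly below equality and 8.69% wholly above. Median-of-ratios scaling made these shares 14.1% and 4.6%, and 16.5% stood clear of equality in either direction with TMM. By the stricter rule of a ratio of at least 2 or at most 0.5 with an interval that excluded equality, 7.24% of the compared genes were called, 3.34% higher and 3.9% lower, and 0 of the 14-3-3 genes was among them. The interval narrows with the count, so that a difference of the size seen for Ywhae would not stand clear of equality in most of the sparsely counted genes.

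**Figure D2:**
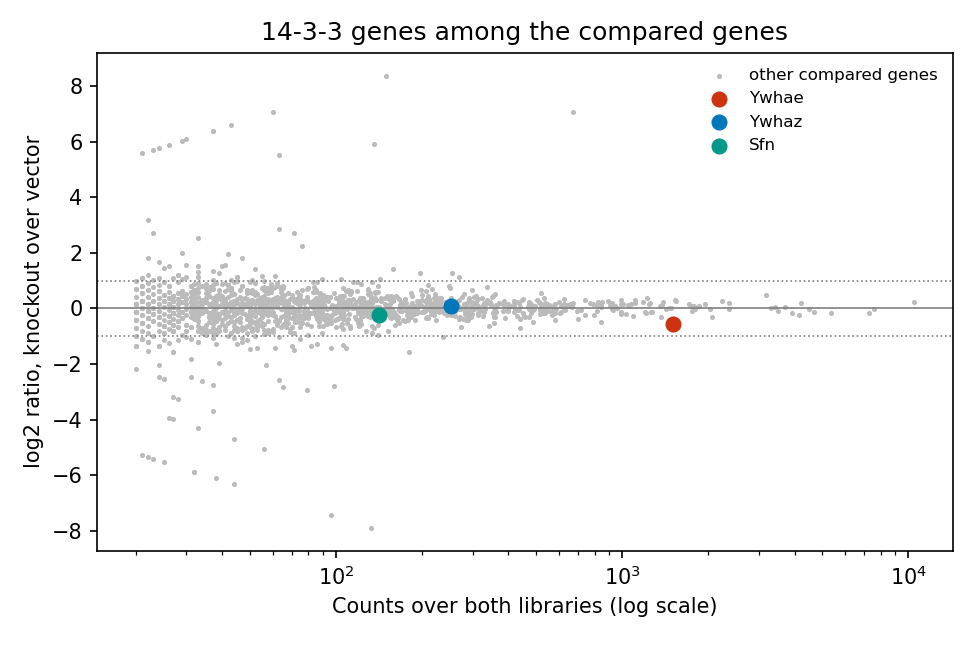
Every compared gene is a point, with its counts over both libraries on a log x axis and its log2 ratio of knockout to vector on the y axis; dotted lines mark 2-fold. Ywhae, at 1502 counts and a log2 ratio of -0.57, lies at the lower edge of the genes with at least 500 counts. Ywhaz, at 253 counts and 0.07, lies near 0.

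Ywhae ranked as number 31 of all listed genes by its counts, and genes counted that well differed little between the libraries. Since Ywhae was picked with its counts in view, its place among these genes is a description, and it depends on the count required. Of the 131 genes with at least 500 counts, 0 had a lower ratio than Ywhae. The only gene of that set farther from equality was Tmsb4x, which encodes the actin-binding peptide thymosin beta-4, with 5 and 665 counts. The median log2 ratio of these 131 genes was 0.07 and the central 90% lay between -0.27 and 0.30. Next to Ywhae among genes with at least 1000 counts came Rbmx, a gene of a nuclear RNA-binding protein, with 795 and 574 counts and a ratio of 0.799 (0.716 to 0.891). Among the 615 genes with at least 100 counts, 23 had a lower ratio than Ywhae. Among the 343 genes with at least 200 counts, 4 had a lower ratio, among them Rbm14 at 0.493, Ipo7 at 0.612 and Setd5 at 0.637. These 3 and Rbmx were named after their values were seen.

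The authors' deposited table gave Ywhae a log2 fold change of 0.588 for vector over knockout, a p-value of 0.00981 and an adjusted p of 0.221, and did not mark it as changed. For Ywhaz the authors' deposited table gave -0.045 and an adjusted p of 1. Those values compare 1 library with 1 library.

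The other listed isoforms were Sfn, Ywhag and Ywhah, while Ywhab (beta) and Ywhaq (theta) were not among the listed genes. Sfn, on mouse chromosome 4, had 80 vector and 61 knockout counts, a ratio of 0.844 (0.595 to 1.19) that includes equality. Ywhag (14-3-3 gamma) had 7 and 4 counts and Ywhah (14-3-3 eta) 5 and 3, too few to be compared. Among the compared isoforms, the scaled ratio was below 1 for Ywhae and Sfn and above 1 for Ywhaz. Only the interval of Ywhae excluded equality. Median-of-ratios scaling left the counts unscaled, and the Ywhaz ratio then also fell below 1. The median log2 ratio of all compared genes was 0.03 with TMM and -0.12 with median-of-ratios scaling. The share of all genes with a ratio below 1 is not given here.

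**Figure D3:**
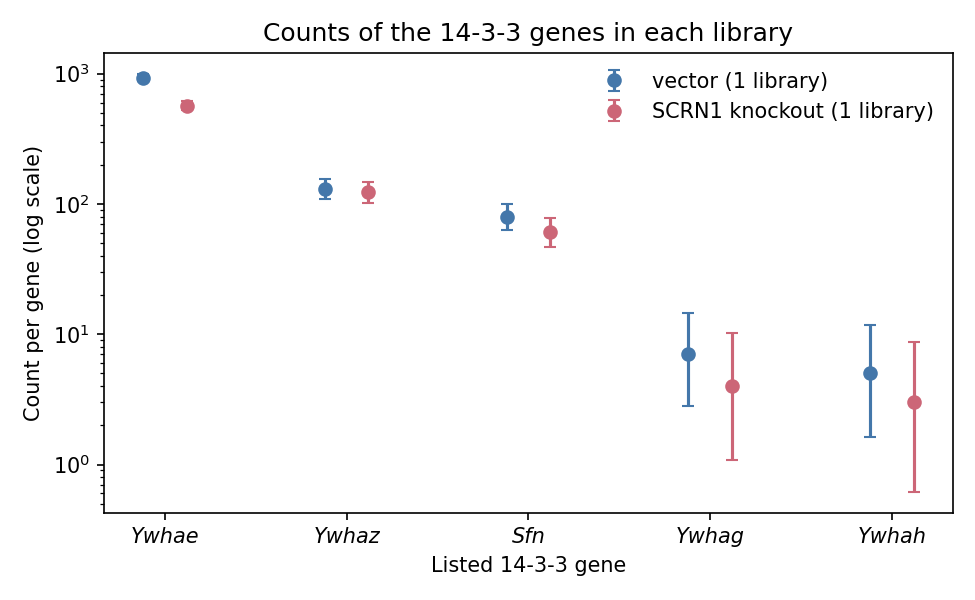
Points are the count of each listed 14-3-3 gene in the vector and the knockout library (1 library each, log y axis) with exact Poisson intervals at 95%. The counts are not scaled for depth, and the library totals were 178421 (vector) and 163644 (knockout). The counts of Ywhae (933 against 569) were in view when it was picked.

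Per gene length the order of the isoforms differed from that of their counts. Ywhae had the highest deposited FPKM level, 1510.5 for vector and 1005 for knockout. Sfn came next with FPKM levels of 277 (220 to 345) and 230.2 (176 to 296), above Ywhaz with 90.02 (75.2 to 107) and 92.9 (77.2 to 111), although Ywhaz had more counts. The FPKM levels of Ywhah (5.24 and 3.43) and Ywhag (4.61 and 2.88) lay within counting error of each other in both libraries. Ywhae ranked as number 47 among all listed genes by mean FPKM, Sfn as number 172 and Ywhaz as number 376. These are levels of counts on mouse genes, and their order rests on the gene lengths behind the deposited FPKM, which are not given here.

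Taken within a library, the isoforms can be compared without any scaling between libraries. Ywhae held 80.8% of the 1155 counts on 14-3-3 genes in the vector library (78.4 to 83.0) and 74.9% of 760 in the knockout library (71.6 to 77.9). Ywhaz held 11.3% (9.49 to 13.2) and 16.2% (13.6 to 19.0), and Sfn 6.93% (5.53 to 8.55) and 8.03% (6.20 to 10.2). The shares of a library add up to the whole, so a lower Ywhae share goes with higher shares of the other isoforms, and the counts of Ywhaz itself were 130 and 123.

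For each Ywhaz count there were 7.18 Ywhae counts (5.97 to 8.69) in the vector library, against 4.63 (3.80 to 5.67) with the knockout. The odds ratio, knockout against vector, was 0.645 (0.489 to 0.851). Against Sfn in place of Ywhaz, the odds ratio was 0.800 (0.556 to 1.15), an interval that includes equality. Both odds ratios are built from the counts by which the genes were picked and are given as a description.

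Summed over the 5 listed isoforms, the 14-3-3 count had a ratio of 0.728 (0.664 to 0.799) between the libraries. Without Ywhae the sum was 222 and 191 counts, a ratio of 0.952 (0.781 to 1.16). Without Ywhae and Ywhaz it was 92 and 68 counts, a ratio of 0.818 (0.589 to 1.13). Both of these intervals include equality.

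**Figure D4:**
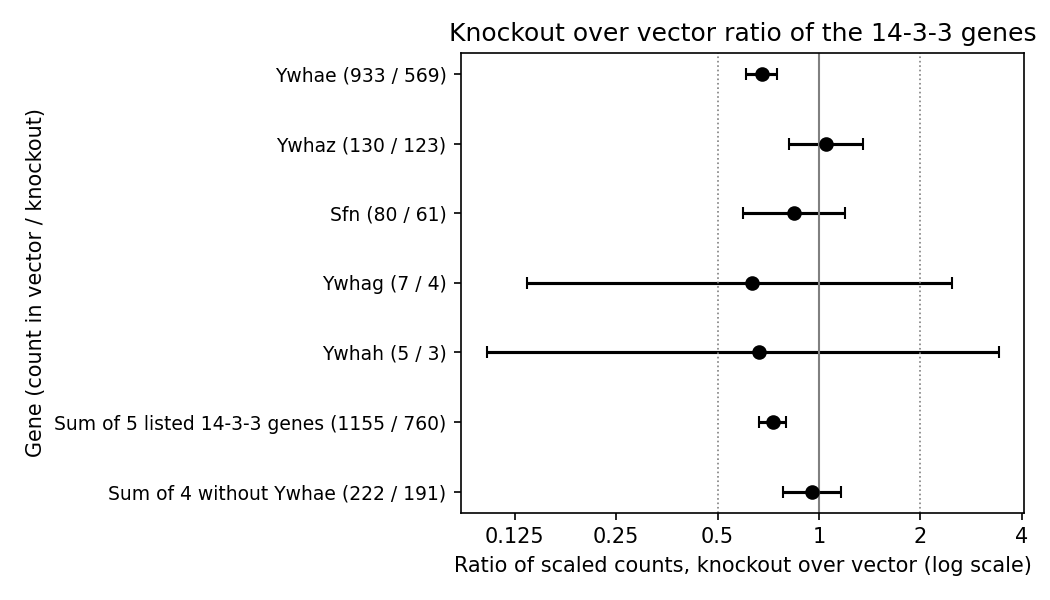
Points are the ratio of scaled counts, knockout over vector, on a log axis with exact intervals at 95%, for each listed 14-3-3 gene and for 2 sums; the counts stand beside each name, the solid line marks equality and dotted lines mark 2-fold. Ywhae (0.675) and the sum that holds it (0.728) lie below equality, and the interval of the sum of the other 4 (0.952) includes equality.

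On the mouse map the nearest listed gene to Ywhae was Crk, an adaptor gene of tyrosine kinase signalling, 25960 bases away. Crk had 95 and 92 counts, a ratio of 1.07 (0.796 to 1.44). For Ywhaz the listed neighbour looked at was Pabpc1, the gene of a poly(A)-binding protein, 161101 bases away. Pabpc1 had 4016 and 3251 counts and a ratio of 0.896 (0.855 to 0.939).

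Kinases that create 14-3-3 binding sites were listed for 11 of 23 genes, of which 4 had at least 20 counts. Rps6ka3, which encodes the ribosomal S6 kinase RSK2 of the ERK pathway, had 298 and 191 counts and a ratio of 0.709 (0.588 to 0.853). It was the only one of the 4 with an interval that excluded equality, as 16.5% of all compared genes did. Pim3 had 24 and 17 counts and Prkca (protein kinase C alpha) 16 and 16, and both intervals include equality. The median log2 ratio of the 4 was -0.10, beside 0.03 for all compared genes.

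Proteins that 14-3-3 dimers dock onto were listed for 20 of 56 genes, of which 8 were compared and 0 was called by the 2-fold rule, beside 7.24% of all compared genes. Ppp1r12a, the myosin-targeting subunit of protein phosphatase 1, had 82 and 116 counts and a ratio of 1.57 (1.17 to 2.10). Larp1, a regulator of the translation of ribosomal protein mRNAs downstream of mTORC1, had 25 and 39 counts and a ratio of 1.73 (1.02 to 2.98). These 2 of 8 had intervals above equality, as had 8.69% of all compared genes. The kinase gene Braf had 20 and 29 counts, a ratio of 1.60 (0.877 to 2.99), and Sik2, a salt-inducible kinase gene, 48 and 27 counts, a ratio of 0.623 (0.373 to 1.02). Both of those include equality. The median log2 ratio of the 8 clients was 0.66, beside 0.03 for all compared genes. Apart from Ppp1r12a and Larp1, the interval of each compared client includes equality.

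With median-of-ratios scaling the ratio of Larp1 was 1.56 (0.921 to 2.69) and that of Ppp1r12a 1.41 (1.06 to 1.90), so that Larp1 no longer stood clear of equality, while 4.6% of all compared genes had an interval above it. The median of all compared genes moved to -0.12 on the log2 scale under that scaling, a shift of -0.15.

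Of 8 phosphatase genes, whose products remove the phosphate that 14-3-3 proteins recognise, 4 were listed and compared, and each interval includes equality. Ppp2ca, the catalytic subunit of protein phosphatase 2A, had 310 and 315 counts and a ratio of 1.12 (0.958 to 1.32). Ppp1cb, a catalytic subunit of protein phosphatase 1, had 184 and 182 counts and a ratio of 1.09 (0.887 to 1.35). The regulatory subunit Ppp2r2a had a ratio of 1.36 (0.980 to 1.89) and the scaffold subunit Ppp2r1a of 0.861 (0.396 to 1.83).

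**Figure D5:**
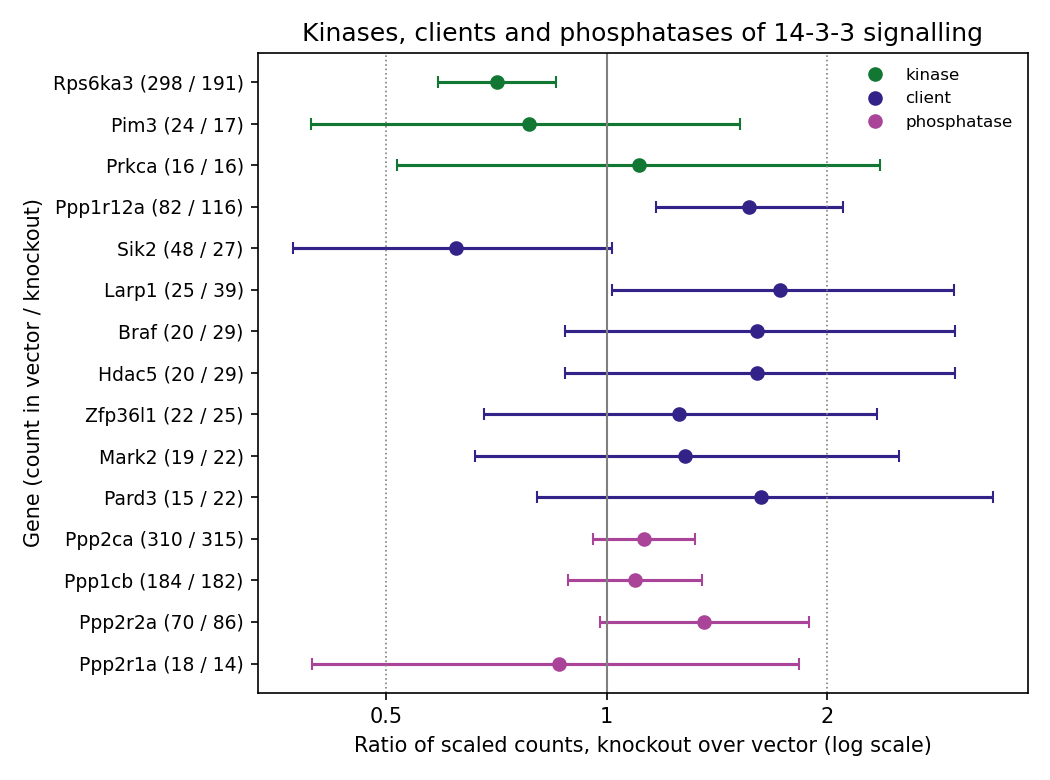
Points are the ratio of scaled counts, knockout over vector, on a log axis with exact intervals at 95%, for 15 of the compared kinases, clients and phosphatases, with the counts of both libraries beside each name and dotted lines at 2-fold. Rps6ka3 (0.709) lies below equality and Ppp1r12a (1.57) and Larp1 (1.73) above it, and the other 12 intervals shown include it.

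The deposited annotation places Ywhae and Ywhaz in shared pathways, a grouping used here after the values were seen. In the PI3K-Akt pathway, where 14-3-3 proteins bind targets of AKT, 30 other genes were compared, with 1 called higher and 2 lower by the 2-fold rule. These are 10.0% of the genes compared, beside 7.24% of all compared genes (3.34% higher and 3.9% lower). The higher one was Col4a5, a collagen IV chain gene, with 6 and 18 counts. The lower ones were Spp1 (osteopontin), with 35 and 2 counts, and Pdpk1, the kinase PDK1 that activates AKT, with 54 and 17 counts and a ratio of 0.348 (0.189 to 0.610). In the Hippo pathway, where 14-3-3 proteins bind phosphorylated YAP, 1 of 26 other compared genes was called, the ligand gene Wnt5a, with 24 and 9 counts and a ratio of 0.415 (0.170 to 0.925). This is 3.85% called, beside the same 7.24%.

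In the cell cycle pathway, where 14-3-3 proteins bind CDC25 phosphatases, 0 of 21 other compared genes was called, beside 7.24% of all compared genes. Stag1, a cohesin subunit gene, had an interval below equality, with 88 and 48 counts and a ratio of 0.604 (0.416 to 0.868), and Cdc27, a subunit of the anaphase-promoting complex, one above it, with 33 and 51 counts and a ratio of 1.71 (1.08 to 2.74). Over all compared genes 7.81% had an interval below equality and 8.69% above. The median log2 ratios of these pathways without the 14-3-3 genes were 0.00, 0.07 and -0.01, beside 0.03 for all compared genes. In the other 5 pathways annotated for Ywhae or Ywhaz, between 17 and 31 other genes were compared, and 0.0% to 5.26% of them were called, again beside 7.24%. The neurotrophin pathway had 1 called gene, again Pdpk1, and the viral carcinogenesis pathway 1, the proteasome subunit gene Psmc1 with 0 and 149 counts. The oocyte meiosis, hepatitis B and hepatitis C pathways had 0.

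The genes with at least 200 counts whose log2 ratio was closest to that of Ywhae, over the 2 libraries, were Ccar1 (219 and 136 counts, within 0.028), Rps6ka3 (within 0.073) and Setd5 (217 and 125 counts, within 0.080). Those closest to Ywhaz were Sp3 (314 and 297 counts), Hbp1 (152 and 144) and Ankrd17 (153 and 145), each within 0.003. With only 2 libraries such closeness is a likeness of 1 ratio.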

How the data were processed

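The authors deposited 1 table with raw counts per gene, FPKM values, a log2 fold change of vector over knockout, and a p-value and adjusted p for each gene, per the file headers. Per the submitters' processing notes, HISAT2 2.0.4, StringTie 1.3.0, bcl2fastq 2.19 and GRCh38 were used. No source used here names the counting tool, the mouse build or the strand setting. The deposited FPKM values scale each count by gene length and library size and were used only for levels per length. Groups follow the sample title and genotype in the labels.

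Counts were scaled with TMM (edgeR 4.0.16, R 4.3.3). The knockout to vector ratio carries an exact conditional binomial (Clopper-Pearson) interval at 95%; shares and odds ratios carry exact intervals and counts exact Poisson intervals. Log2 ratios of genes use 0.5 added to each count. Genes were compared where their summed count was at least 20. Reads are not independent molecules, so intervals cover counting error only. The quasi-likelihood test was not run, because with 1 library in each group no spread can be estimated.

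Members and lists were chosen with earlier results of these data known. The rule for named genes takes the listed 14-3-3 genes, in each list the genes called or clear of equality and the 4 with most counts, and for each member the 3 genes of closest ratio. A few genes within this rule are not reported here. Human copies were aligned to GENCODE 29 coding sequences with Biopython 1.88 (match 1, mismatch -1). Python 3.11.15, SciPy 1.17.1 and DESeq2 1.42.0 (size factors) were used.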

Additional observations from a re-analysis of the deposited data

How the results depend on the processing

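The ratio of Ywhae lay between 0.610 (median-of-ratios scaling) and 0.680 (upper quartile) over the 4 other scalings and was 0.665 from the deposited FPKM values. That of Ywhaz lay between 0.946 and 1.06, with 1.03 from FPKM, and fell below 1 only with median-of-ratios scaling. The comparison of Ywhae with Ywhaz within a library does not involve scaling. The 115 genes called by the 2-fold rule, 53 higher and 62 lower, became 42 and 89 with median-of-ratios scaling, 42 genes in all with at least 50 counts, 295 with no count filter and 181 with a 1.5-fold rule. Genes with an interval below equality went from 124 to 224 with median-of-ratios scaling and to 229 with no filter, and those above it from 138 to 73 and 213. With a filter of 10 counts the client list gained 1 called gene, Foxo4, on 4 and 14 counts. The share of all genes called with that filter is not given here, so this call has no background beside it. Adding processed copies to their parent genes could not be run, since no listed row is annotated as a 14-3-3 copy. No paired analysis was possible because there was 1 library per group. Depth limits Ywhag and Ywhah, and no replicate exists to measure the spread between cultures.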

Other observations

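Some partners of 14-3-3 proteins were counted too sparsely to be compared, and their values were looked at only after they were seen to lean to 1 library. Foxo4, a forkhead transcription factor gene whose product is held in the cytoplasm by 14-3-3 proteins, had 4 vector and 14 knockout counts, a ratio of 3.87 (1.22 to 16.2), while Foxo3 had 6 and 4. Prkaca, the catalytic subunit of protein kinase A, had 0 and 7 counts, and Khsrp, an mRNA decay factor gene, had 6 and 0. Of the 8 other listed genes whose deposited annotation includes binding to 14-3-3 proteins, 4 were compared. Ppp1r12a, already given among the clients, was the only one clear of equality, as were 16.5% of all compared genes. Srpk2, an SR protein kinase gene, had 57 and 56 counts, and Pi4kb, a phosphatidylinositol kinase gene, 12 and 12.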
